A study of Mus musculus with 7 samples.

Results

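The B lymphocytes of WT pancreas were the cells that the authors' annotation placed in a cluster whose name begins with B_lymph, in 2 single-cell RNA libraries made from whole digested pancreas. The cluster held 158 of the 10653 WT cells, 47 from mouse WT 1 and 111 from mouse WT 2, in a series of 58473 cells. They were set beside the other immune clusters of the same mice, 618 cells of the macrophage clusters and 193 of the cluster named NK (811 cells in all), and beside the cells given the same name in pancreas undergoing partial reprogramming.

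All mice were C57BL/6 and 2 months old. The 2 WT mice were wild type and drank doxycycline at 1 mg/ml with 7.5% sucrose for 7 days. The 3 i4F mice (genotype i4F-B) had the same drink and were heterozygous for a ubiquitous cassette that doxycycline switches on, encoding Oct4, Sox2, Klf4 and c-Myc and sitting in the Pparg gene, and for its transactivator rtTA in the Rosa26 locus, so that their B lymphocytes carried the cassette too. The 2 caerulein mice were wild type and had acute pancreatitis from intraperitoneal caerulein, a cholecystokinin analogue, at 100 µg/kg, 7 injections a day on 2 days. Each mouse gave 1 library, and the study clustered each condition separately. The rtTA transcript had no UMI (unique molecular identifier, 1 counted RNA molecule) in the WT B lymphocytes and was found in 4.64%, 3.50% and 4.34% of the B lymphocytes of the 3 i4F mice.

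The label was checked against B cell markers. Cd79a, a signalling chain of the B cell receptor, was found in every one of the 158 cells, with 665 UMIs in WT 1 and 987 in WT 2, against 0 and 1 UMI in the macrophages and NK cells of the same mice. Ms4a1, the surface protein CD20, had 223 and 275 UMIs in 78.7% and 78.4% of the B lymphocytes and none in the other immune cells. With every cell thinned to 500 UMIs, Cd79a was still found in 73.9% and 76.6% of them. Both markers were thus present in the cluster and all but absent from the other immune cells. T, NK and myeloid genes were near 0: Cd3d and Cd3e had no UMI, the 7 NK markers summed to 1 and 3 UMIs, the 9 macrophage markers to 6 and 11 UMIs (12300 and 31872 in the macrophages), and neutrophil and erythrocyte markers had none.

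The 2 reference classes, called macrophages and NK cells here after the authors' names, were not pure. In the NK cluster the 9 T cell markers summed to 739 and 1003 UMIs in WT 1 and WT 2, beside 1178 and 817 for the 7 NK markers, so it held T cell as well as NK cell RNA. In the macrophage clusters the 8 dendritic cell markers summed to 619 and 1073 UMIs.

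The cluster gave 215883 UMIs in WT 1 and 419731 in WT 2. A cell had a median of 2886 UMIs and 1162 genes in WT 1 (range 258 to 24325 UMIs) and 2066 UMIs and 912 genes in WT 2 (range 826 to 21391). Macrophages had medians of 5778.5 and 2242 UMIs and NK cells of 2247.5 and 1667. No cell barcode was shared between the B lymphocytes of the 2 mice or with any other library. Levels are given as CPM, the UMIs of a gene scaled to the total of its class in that mouse, which for this assay of transcript 3′ ends needs no correction for length. The 95% intervals given for shares of cells are exact Clopper-Pearson intervals and cover counting error only.

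B lymphocytes sense antigen through a membrane antibody that sits with the signalling chains CD79A and CD79B. A naive B cell makes IgM and IgD, and on activation it may switch class, divide, enter a germinal centre or become a plasma cell, which turns its secretory pathway over to antibody. The J chain joins the units of secreted IgM and IgA. Each B cell normally uses a single light chain, kappa or lambda, and in mice kappa is the more common. Pancreas tissue also carries lymphocytes of the blood, and pancreatic lymph nodes lie close to it.

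Several results below turn on antibody genes, so the sequences behind their counts are shown here. The lambda constant regions Iglc1 (GRCm38 chr16:19061618-19062071, minus strand), Iglc2 (chr16:19198396-19200351, minus strand) and Iglc3 (chr16:19065230-19065681, minus strand) are related, and Iglc2 and Iglc3 are near copies. Their first 150 coding bases follow, from GENCODE M21 transcripts, with capitals at bases that differ from Iglc2 and, for Iglc2, from Iglc3.
Iglc1: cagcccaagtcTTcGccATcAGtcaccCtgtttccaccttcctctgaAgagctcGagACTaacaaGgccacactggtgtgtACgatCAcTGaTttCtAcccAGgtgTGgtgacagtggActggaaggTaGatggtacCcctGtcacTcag
Iglc2: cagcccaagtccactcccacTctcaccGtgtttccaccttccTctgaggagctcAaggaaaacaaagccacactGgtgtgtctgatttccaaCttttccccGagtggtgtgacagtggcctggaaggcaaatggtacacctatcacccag
Iglc3: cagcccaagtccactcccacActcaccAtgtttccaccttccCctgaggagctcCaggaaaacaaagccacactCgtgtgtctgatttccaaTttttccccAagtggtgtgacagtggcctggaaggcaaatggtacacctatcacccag
Iglc1 differed from Iglc2 at 33 of these bases and Iglc3 at 7. Over their whole coding region Iglc2 and Iglc3 shared 301 of 312 bases (96.5%), so the counting could have split reads between them. Lambda shares below use the sum of all 3, and values given for Iglc2 or Iglc3 alone carry this limit.

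A variable gene pair found in the same cells is shown for the same reason. Igkv14-126 (chr6:67896172-67896642, plus strand) and Ighv11-2 (chr12:114048241-114048812, minus strand) are a light and a heavy chain variable gene, known together from B-1 cells that bind phosphatidylcholine. The last 90 bases of each transcript follow, with capitals at the conserved tyrosine, tyrosine or phenylalanine, and cysteine codons that stand before the third complementarity-determining region.
Igkv14-126: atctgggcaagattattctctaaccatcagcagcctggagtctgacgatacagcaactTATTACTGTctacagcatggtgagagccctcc
Ighv11-2: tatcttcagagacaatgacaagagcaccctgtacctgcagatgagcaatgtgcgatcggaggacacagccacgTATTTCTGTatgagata
Reads from a 3′ assay start at the constant region and seldom reach these segments, so a cell without a variable gene UMI was not informative.

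The cluster was first compared with the other immune cells of its own mice. The authors made the clusters from these same genes, so the ratios are a description with no test. A gene was called when it was at least 2-fold higher or lower in both mice, with at least 10 UMIs in both classes together in each mouse. A gene all but absent from the other immune cells reached this minimum only through the B lymphocytes, and could only be called higher. Of 7489 genes, 222 (2.96%) were higher in B lymphocytes and 1363 (18.2%) were lower. The median log2 ratio over these genes was -0.26 in WT 1 and -0.31 in WT 2. It was -0.10 and -0.07 without the antibody-rich cells described below, where antibody genes took 53.4% and 52.0% of the UMIs.

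Of the receptor and its co-receptors, 10 of the 14 members with enough UMIs were called higher and none lower, with median log2 ratios of 5.12 and 3.40. Cd79b, the partner of Cd79a, had 267 and 395 UMIs (log2 ratios 6.15 and 5.76).

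Fcmr, the receptor for the Fc part of IgM, had 92 and 183 UMIs and none in the other immune cells, which put it at least 118-fold and 248-fold higher, taking 3 UMIs as the limit that a count of 0 allows in each mouse. Fcer2a, the low-affinity IgE receptor CD23 of mature B cells, had 23 and 64 UMIs and none elsewhere (at least 29.6-fold and 86.8-fold). Cr2, the complement receptor CD21, was sparse, with 6 and 12 UMIs and none elsewhere.

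Inhibitory co-receptors were found as well. Cd22 had 28 and 15 UMIs, against 0 and 13 in the other immune cells. Siglecg, another sialic acid receptor that damps the response, had 52 and 55 UMIs (log2 ratios 2.51 and 2.34), and the tetraspanin Cd37 had 241 and 327 (2.63 and 2.52).

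Members that macrophages also use did not stand out. Cd72 (log2 ratios 1.58 and 0.89), Cd180 (0.43 and 0.40), Cd81 (-0.61 and -0.80) and the inhibitory IgG receptor Fcgr2b (-0.01 and -1.30) were not called. Fcgr2b had 28 UMIs in the B lymphocytes of each mouse.

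Downstream of the receptor, 3 of 12 signalling genes were called higher and none lower. They were the kinase Blk (15 and 30 UMIs, log2 ratios 2.49 and 3.54), the adaptor Bank1 (74 and 111 UMIs, 4.51 and 3.00) and the exchange factor Ralgps2 (32 and 55 UMIs, 4.04 and 2.58). The kinases Btk, Syk and Lyn and the adaptor Blnk, which macrophages express too, were not called.

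Among 16 transcription factors of the lineage, 8 were called higher and none lower. Pax5, which fixes B cell identity, had 42 and 27 UMIs against 0 and 1 elsewhere (at least 54.1-fold in WT 1 and 110-fold, with a counting interval of 18.1 to 4499, in WT 2). Ebf1, an earlier factor of the same programme, had 110 and 157 UMIs (log2 ratios 5.63 and 3.91). Spib, Pou2af1, Bcl11a, Ikzf3, Mef2c and Bach2 were the others, with Pou2af1, a coactivator of antibody promoters, at 42 and 51 UMIs (4.64 and 4.99). Ikzf3 was not above the NK cluster, at 144 and 54.8 CPM against 153 and 167 CPM there, and Bach2 was close to it, at 46.3 and 16.7 CPM against 43.8 and 21.4 CPM.

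Class II chains of antigen presentation were at high levels in both B lymphocytes and macrophages. The class II chain H2-Aa was at 5823 CPM in WT 1 and 3499.9 CPM in WT 2 in the B lymphocytes, 13328 and 10670.1 CPM in the macrophages, and 10.9 and 8.56 CPM in the NK cells. Of 12 antigen presentation genes, 3 were higher and 1 lower. The higher ones were H2-DMb2, of the peptide-loading chaperone (175 and 161 UMIs, log2 ratios 2.97 and 2.84), and H2-Oa (55 and 60 UMIs, 1.34 and 1.17) and H2-Ob (57 and 55 UMIs, 2.25 and 2.21), which together form the inhibitor of that chaperone known from B cells. The lower one was the class II chain H2-Ab1 (log2 ratios -1.08 and -1.51). These cluster totals include the antibody RNA of the antibody-rich cells described below, which lowers the CPM of other genes. Without those cells the antigen presentation genes summed to 24331 and 17465 CPM, against 17208 and 10266 in the whole cluster. Macrophages had 38496 and 30584 CPM. The co-stimulatory genes Cd86, Cd80, Cd40 and Icosl were not called.

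**Figure D1:**
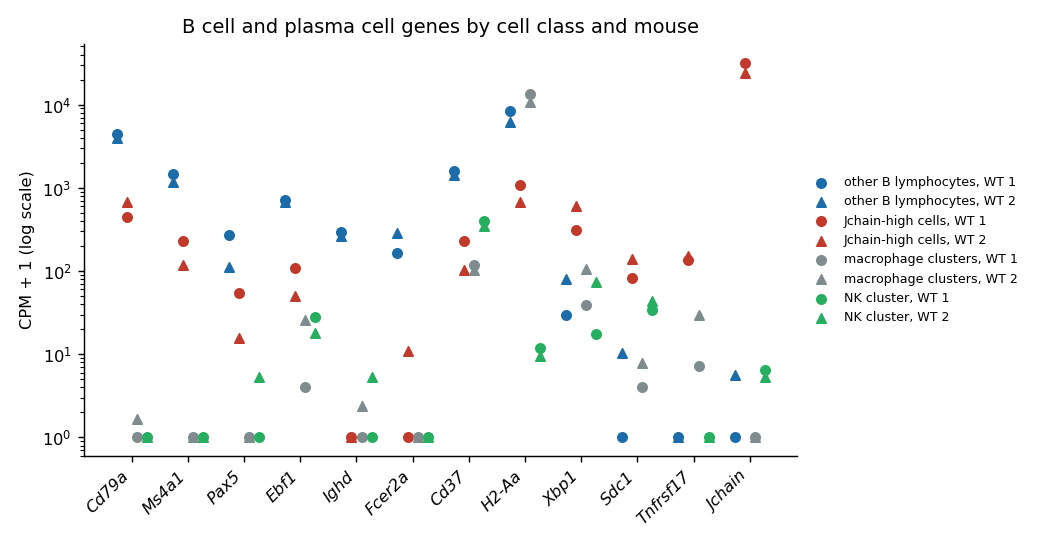
Levels of 12 B cell and plasma cell genes in CPM plus 1, on a log scale, with 1 point per cell class and mouse (circles WT 1, triangles WT 2). Cd79a to Fcer2a were highest in the B lymphocytes with fewer than 2 Jchain UMIs (blue). H2-Aa was higher in macrophages (grey) than in any B lymphocyte class. Sdc1 and Tnfrsf17 were highest in the Jchain-high cells (red), which were chosen by their Jchain UMIs, so that Jchain had to be highest there.

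Antibody RNA was spread very unevenly within the cluster. Jchain (chr5:88519809-88527891, minus strand) was found in 8.51% of the B lymphocytes of WT 1 and 16.2% of those of WT 2, yet its 2374 and 4907 UMIs came to 10997 and 11691 CPM. Cells with at least 2 Jchain UMIs are called Jchain-high here: 4 of 47 cells in WT 1 (8.51%, 2.37 to 20.4) and 17 of 111 in WT 2 (15.3%, 9.18 to 23.4), 21 of 158 in all (13.3%). The shares of the 2 mice had overlapping intervals.

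The cells near that threshold were few. Of the 21 cells, 19 had between 54 and 961 Jchain UMIs, and the 2 others had 5 and 2. The only other B lymphocyte with any Jchain had 1 UMI. The 21 cells were large in RNA, with a median of 18559.5 UMIs in WT 1 and 13242 in WT 2, against 2575 and 1897 in the remaining B lymphocytes.

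Antibody genes took 53.4% and 52.0% of the UMIs of the Jchain-high cells, and 2.04% and 1.94% of those of the other B lymphocytes. The few Jchain-high cells held 93.2% of the antibody UMIs of the cluster in WT 1 and 96.2% in WT 2. A level of Igkc, Ighm or Jchain given for the whole cluster is thus mostly a level of these cells.

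**Figure D2:**
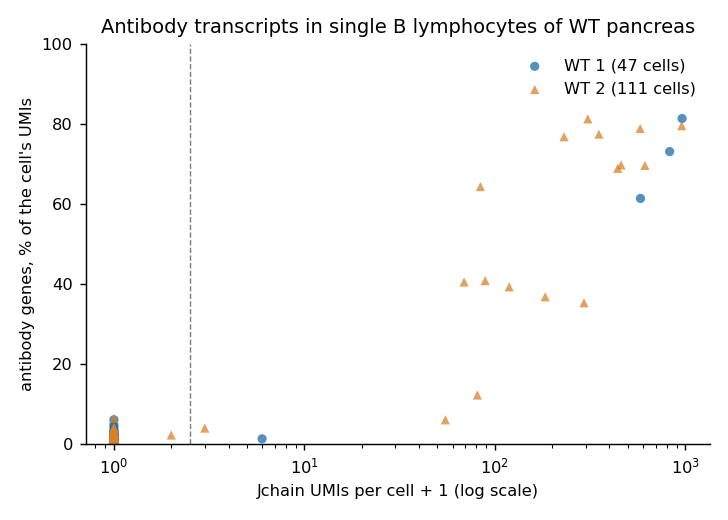
Share of each B lymphocyte's UMIs on antibody genes (%) against its Jchain UMIs plus 1 (log scale), for the 47 cells of WT 1 and the 111 cells of WT 2. The dashed line marks the threshold of 2 Jchain UMIs. Every cell left of it had at most 6.44% antibody UMIs, and the cells on the right reached 81.4%, with 3 of them between 1.32% and 6.07%, within the range on the left.

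Of the 12 plasma cell genes, 8 were called higher in the cluster than in other immune cells and none lower. To place them within the cluster, the Jchain-high cells held 34.5% of its UMIs in WT 1 and 48.7% in WT 2. Xbp1, which drives the secretory programme, had 27 and 140 UMIs, 87.4% of them in the Jchain-high cells. Sdc1, the plasma cell surface proteoglycan CD138, had 6 and 30 UMIs, 94.4% of them there. Tnfrsf17, the survival receptor BCMA, had 10 and 31 UMIs in 15 Jchain-high cells and none in other B lymphocytes. Irf4, a factor of plasma cells and activated B cells, had 3 and 9 UMIs in the 4 and 17 Jchain-high cells and 12 and 22 UMIs in the other 43 and 94. Its CPM was lower in the Jchain-high cells (40.3 and 44.1 against 84.8 and 102), where antibody RNA took more than 50% of the total.

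Genes of protein folding in the endoplasmic reticulum sat in the same cells. The Jchain-high cells held 95.7% of the UMIs of Derl3, 91.3% of Creld2, 91.5% of Txndc5 and 77.1% of Mzb1. Mzb1, which assists antibody assembly in B cells more widely, was also found in 80 other B lymphocytes. Prdm1, the repressor that ends the B cell programme, had 3 and 8 UMIs, of which 1 and 8 lay in the Jchain-high cells.

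Genes of the mature B cell were scarce in the Jchain-high cells. They held 8.23% of the UMIs of Ms4a1, 7.96% of H2-Aa, 2.30% of Fcer2a and 1.90% of Ccr7. All 21 had a Cd79a UMI, but Cd79a was at 443 and 671 CPM in them, against 4467 and 3945 CPM in the other B lymphocytes. None of the 21 had an Ighd UMI, a share whose interval reached 16.1%.

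Other genes were found in some of these cells. Slpi, a protease inhibitor, had 82 and 210 UMIs in 10 Jchain-high cells, 188 of them in 1 cell, and Prg2, the eosinophil major basic protein, had 45 and 66 UMIs in 11. Il10, the cytokine of regulatory B cells, had 28 and 11 UMIs, and 25 of them came from 1 Jchain-high cell of WT 1. Ctla4 had 21 and 26 UMIs, 70.2% of them in 12 Jchain-high cells.

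Heavy chain class was read from the constant regions. Ighm (chr12:113418558-113422730, minus strand) had 7316 and 23263 UMIs, 95.8% of them in the Jchain-high cells, and 19 of those 21 cells had it. The others were a cell of WT 1 with 1330 Ighg2c UMIs and 827 Jchain UMIs, and a cell of WT 2 with 13 Ighg2b UMIs, so that 2 of 21 had more RNA of a switched class than of Ighm. Igha, the class of mucosal antibody, reached 18 and 3 UMIs in 2 cells of WT 2 that also had Ighm.

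In the 137 other B lymphocytes, 130 (94.9%, 89.8 to 97.9) had Ighm and 52 had Ighd (interval 29.8 to 46.6%), 51 of them both. Only 4 had more UMIs of a switched class than of Ighm. Ighd (chr12:113406604-113416324, minus strand) had 41 and 57 UMIs against 0 and 3 in the other immune cells.

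Ighm was also counted outside the B lymphocytes. It was found in 93.6% and 94.6% of the B lymphocytes, but also in 43.3% and 30.0% of macrophages and 23.6% and 14.9% of NK cells. With every cell thinned to 500 UMIs, Ighm was found in 78.3% and 73.9% of B lymphocytes, 7.77% and 7.97% of macrophages and 1.47% and 5.00% of NK cells, with 1 and 0 B lymphocytes, 1 and 12 macrophages and 4 and 1 NK cells of WT 1 and WT 2 too shallow to thin. Igkc was found in 91.5% and 94.6% of B lymphocytes, and in 1.92% and 5.25% of macrophages and 2.78% and 6.61% of NK cells. Macrophages thus had more Ighm (94 and 205 UMIs) than Igkc (2 and 36), the reverse of the B lymphocytes. The source of the Ighm UMIs in these cells was not tested.

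The kappa constant region Igkc (chr6:70726435-70726966, plus strand) had 30568 and 79851 UMIs and led the ranking of genes by their smaller log2 ratio over the other immune cells, followed by Jchain, Cd79a, Iglc1, Iglc2, Ms4a1, Mzb1, Iglc3, Ighm and Fcmr. All 7 constant regions with enough UMIs were called higher. Apart from Ighm they had enough only through the B lymphocytes, so that minimum fixed the direction of their calls. Lambda RNA was also present: Iglc1 had 318 and 390 UMIs, Iglc2 229 and 795 and Iglc3 172 and 647.

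Light chain use was read in both cell classes. All 21 Jchain-high cells had most of their light chain UMIs on kappa, and lambda made up 0.410% and 1.36% of their light chain UMIs. In the other B lymphocytes lambda made up 26.8% and 22.8%. The 21 cells gave 0 led by lambda, with an interval up to 16.1%, which holds the share of the other cells below. Of the 136 with at least 3 light chain UMIs, 115 were led by kappa (84.6%, 77.4 to 90.2), 20 by lambda (14.7%, 9.22 to 21.8) and 1 had equal numbers.

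The lambda share per cell was not all or none. Kappa and lambda UMIs were found together in 114 of these 136 cells (83.8%), and 29 (21.3%) had between 20% and 80% lambda. The median lambda share was 9.49% in WT 1 and 13.3% in WT 2. Iglc2 was found in 72.1% and 77.7% of the other B lymphocytes, and in at most 0.195% of macrophages and no NK cell. The part of free RNA in these mixed counts was not tested.

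**Figure D3:**
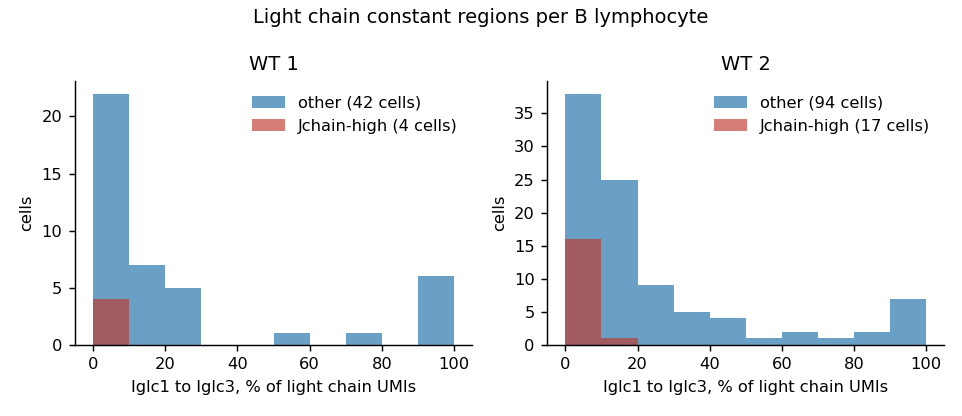
Number of B lymphocytes by the share of light chain UMIs that fell on Iglc1, Iglc2 and Iglc3 (%), in WT 1 and WT 2, for cells with at least 3 light chain UMIs. All Jchain-high cells (red) had at most 20% lambda, and the other cells (blue) peaked below 20% with a smaller group near 100%.

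Variable genes were seen where antibody RNA was abundant. Kappa variable genes had UMIs in 42 of the 158 cells, 20 of the 21 Jchain-high cells and 22 of the 137 others, and 26 different genes led. Heavy chain variable genes had UMIs in 23 cells, led by 16 genes.

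Few variable genes recurred. Igkv14-126, the kappa variable gene that led in most cells, had 84 and 93 UMIs and led in 6 of them, with 83 UMIs in a cell of WT 1, 59 and 31 in 2 cells of WT 2, and 2, 1 and 1 in the rest. The first 3 were Jchain-high cells, and they were also the only cells with Ighv11-2, at 7, 10 and 8 UMIs. All 3 had Ighm, and the WT 1 cell was the one with 25 Il10 UMIs.

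Igkv5-39 (chr6:69900424-69900977, minus strand) led in 5 Jchain-high cells with 47 UMIs in WT 1 and 21 in WT 2, and Igkv19-93 and Ighv1-42 in 3 Jchain-high cells of WT 2 each. Igkv19-93 and Ighv1-42 led together in a cell with 13 and 17 UMIs of them and in another with 8 and 5. The lambda variable gene Iglv1 (chr16:19085017-19085500, minus strand) had 31 and 61 UMIs in 14 cells, 12 of them Jchain-high. Igkv6-15 and Igkv15-103 gave 63 and 56 UMIs in WT 2, of which 62 and 56 lay in 1 cell each, and none in WT 1.

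Cell cycle genes were counted per cell, and at the depth of most cells a dividing cell could be missed. At least 4 of 10 cell cycle genes were found in 4 of the 21 Jchain-high cells (19.0%, 5.45 to 41.9) and in 1 of the 137 others (0.730%); the Jchain-high cells were also the deeper ones (medians above). The 10 genes were not called against the other immune clusters, with median log2 ratios of -0.28 and 0.62. Of the Mki67 UMIs 96.6% lay in 5 Jchain-high cells, 29 of them in the cell with 5 Jchain UMIs and 19 in another, and 16 of the 21 cells had none.

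A single cell of WT 1 held most of the germinal centre signal of that mouse. It had 20546 UMIs, only 5 of Jchain, all 10 cell cycle genes, 29 Mki67 UMIs, 17 Ms4a1 UMIs, and 38 of the 54 UMIs of the germinal centre list in that mouse. Rgs13, S1pr2 and Mef2b, genes of germinal centre B cells, had 7, 7 and 15 UMIs in 1 Jchain-high cell each.

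The cluster as a whole was then set against lists of B cell subsets. Of the 9 follicular B cell genes, 6 were called higher than in other immune cells and none lower. Besides Fcer2a and Ighd they included the homing receptor Cxcr5 (27 and 26 UMIs against 0 and 6 elsewhere), the complement regulator Cd55 (42 and 50 UMIs against 0 and 23) and the chromatin organiser Satb1 (25 and 28 UMIs, log2 ratios 1.27 and 1.66). For Satb1 the ratio came from the macrophages in the reference: it was at 116 and 66.7 CPM in B lymphocytes, 6.15 and 2.71 in macrophages and 192 and 133 in NK cells. Ccr7, which guides lymphocytes to the T zone, had 97 and 114 UMIs but split, at 1.02 and -0.04.

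Other subset lists were mixed. Over all 7489 genes 2.96% were called higher and 18.2% lower, and in lists this small a few lower calls say little beside that share. Of 5 measured marginal zone genes, 1 was higher (Plac8, 356 and 457 UMIs, log2 ratios 2.27 and 3.21) and 2 were lower. Cr2 and Dtx1 of that list had too few UMIs to be called, but Cr2 had none elsewhere and Dtx1 had 5 and 6 UMIs against 1 and 1. Of 10 B-1 cell genes, 2 were higher, namely the transcriptional repressor Zbtb32 (17 and 12 UMIs) and Ctla4, and 3 were lower. Ctla4 was not above the NK cluster with its T cell RNA in WT 2, at 61.9 CPM against 180 CPM there. Of the age-associated B cell genes, Itgax, Zeb2 and Cxcr3 were lower, Itgax and Cxcr3 having enough UMIs only through the other immune cells. Fcrl5 had too few to be called, with 12 and 3 UMIs and none elsewhere, and Tbx21 had none in the B lymphocytes.

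Genes of immature B cells were mixed as well. Vpreb3 (20 and 34 UMIs), Cd24a (107 and 127) and Spib were called higher, all of which peripheral B cells may keep, and Cd93 was lower. Rag2, Igll1 and Dntt, needed only during receptor assembly, had no UMI, and neither had Myb. Vpreb1 of the same list was detected in the B lymphocytes, with too few UMIs to be called.

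Migration and survival receptors of B cells were detected. Of 11 homing receptors 5 were higher and none lower, among them Ccr6 (17 and 20 UMIs against 2 and 4), S1pr1, which guides exit from tissue (31 and 40 UMIs, log2 ratios 2.63 and 1.70), and Cd69, its antagonist on activated lymphocytes (73 and 173 UMIs, 1.38 and 2.88). Cd69 was higher still in the NK cells of WT 1, at 531 CPM against 338 CPM. Tnfrsf13c, the receptor for the survival factor BAFF, had 51 and 58 UMIs against 4 and 6 elsewhere (5.15 and 4.97). Tnfrsf13b, the receptor TACI, had 26 and 66 UMIs (2.11 and 2.42). With Tnfrsf17 these made the 3 of 10 receptors of BAFF, APRIL and cytokines that were higher, and 3 were lower. Over all genes 2.96% were called higher and 18.2% lower.

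Ltb, lymphotoxin beta, a signal for lymphoid tissue organisation, had 31 and 171 UMIs (log2 ratios 1.73 and 1.45), but the NK cluster, with its T cell RNA, was above the B lymphocytes in both mice (181 and 942 CPM against 144 and 407). Tgfb1 had 7 and 60 UMIs. Tnf had 2 and 4 UMIs, against 518 and 1065 in the other immune cells. Tlr7 had 1 and 2 UMIs. None of 9 MHC class I genes was called in either direction, while 6 of 12 immediate early genes and 4 of 7 heat-shock genes were lower than in the other immune cells and none was higher, beside 18.2% of all genes called lower. The cluster totals include the antibody RNA of the Jchain-high cells. Without those cells the immediate early genes summed to 7111 and 11826 CPM, against 5142 and 7722 in the whole cluster. Macrophages had 11232 and 16160 CPM and NK cells 14286 and 14774. Heat-shock genes summed to 2403 and 5012 CPM without them and 1959 and 3269 in the whole cluster. Macrophages had 6044 and 8277 CPM and NK cells 5145 and 5474. Interferon-stimulated genes were mostly sparse in the B lymphocytes, such as Ifit1 with 2 UMIs in each mouse and Rtp4 with 3 and 1, and had enough UMIs through the other immune cells.

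The 2 mice were then compared within the cluster, as a description with 1 library each. In the labels, the library name of WT 1 shares its prefix with those of the i4F mice and that of WT 2 with those of the caerulein mice. What the prefix stands for is not given, and it cannot be told apart from the difference between the mice. Over 3223 genes kept by a minimum of 20 UMIs, log2 CPM correlated across genes with r = 0.754 between the mice, and 569 genes were at least 2-fold apart, 327 higher in WT 2 and 242 in WT 1. Genes are not independent replicates, and all points share the same 2 libraries.

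Of the 12 immediate early genes, 4 were at least 2-fold higher in WT 2, and of the 7 heat-shock genes with a mean of at least 20 UMIs, 5 were. The 3223 genes above had a looser minimum than this mean, which let in sparser genes such as Slc7a1 with 14 and 6 UMIs. Of them 17.7% were 2-fold apart in either direction, which is thus not a like background. Jun, part of the AP-1 factor, had 14 UMIs in WT 1 and 473 in WT 2 (log2 difference 4.05). Dusp1 had 7 and 76 (2.37), and the chaperone Hspa1a 20 and 305 (2.93). Fos differed by 1.48, whereas Junb (0.32), Egr1 (0.54) and Nr4a1 (-0.13) were nearer to each other.

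Some of these differences were shared with the other immune cells. Jun was higher in WT 2 in NK cells (1.78) and macrophages (2.59) too, and so was the small heat-shock gene Hspb1, with 0 and 64 UMIs in the B lymphocytes, 0 and 37 in NK cells and 3 and 519 in macrophages. Dusp1 differed by -0.25 in NK cells and 0.33 in macrophages, and Hspa1a by 0.92 and 0.64. In the other direction Cxcl10, a chemokine of the interferon response, had 86 and 23 UMIs (-2.79, with -2.09 in NK cells and -0.42 in macrophages) and Il1b 38 and 0.

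**Figure D4:**
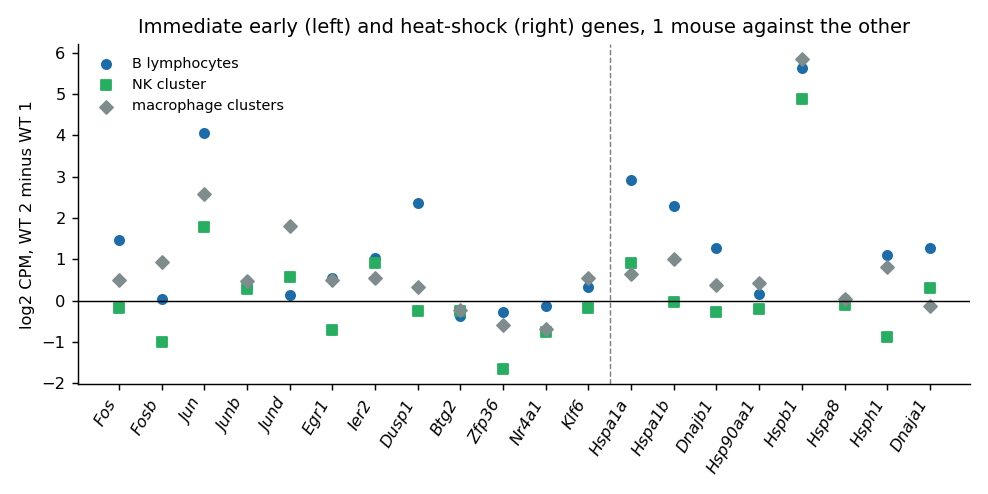
Difference in log2 CPM between the mice (WT 2 minus WT 1) for 12 immediate early and 8 heat-shock genes, with 1 point for each of B lymphocytes (circles), the NK cluster (squares) and the macrophage clusters (diamonds). Jun and Hspb1 were higher in WT 2 in all 3 classes, and Dusp1, Hspa1a and Hspa1b differed by more than 2 log2 units in the B lymphocytes but not in the other classes.

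Markers of pancreatic and stromal cells were also present at low levels. The 7 stellate cell markers summed to 7 UMIs in the B lymphocytes of WT 1 and 500 in WT 2, 401 of the latter from Dcn, and at least 2 such UMIs were found in 0 and 10 cells. The 6 endothelial markers summed to 66 and 61 UMIs. Only 3 of the 20 acinar markers were listed in the WT table (Amy2a5, Pla2g1b and Gp2), which summed to 103 and 252 UMIs, and 51.1% and 51.4% of the cells had at least 2. Their part in the differences between the mice was not tested.

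The study examined which immune cells infiltrate the pancreas during reprogramming, so the WT cells were set against i4F pancreas. B lymphocytes were 1.09% (0.799 to 1.44) and 1.75% (1.45 to 2.11) of all cells in WT 1 and WT 2, and 4.62%, 4.17% and 16.9% in i4F mice. The mean was 1.42% ± 0.473 (SD, n = 2) in WT and 8.58% ± 7.25 (SD, n = 3) in i4F. All i4F values lay above both WT values, and the exact two-sided permutation test gave p = 0.2, the smallest p that 2 against 3 mice allow.

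Among immune cells the groups overlapped. The 2 WT mice had B lymphocyte shares of 21.1% and 14.9%, and the 3 i4F mice of 10.9%, 8.64% and 45.6% (exact two-sided permutation p = 1). The log2 ratio of WT to i4F was -0.27, and 0.88 without i4F 3. Among cells with at least 500 genes, B lymphocytes made up 1.65% and 2.14% of all cells in WT 1 and WT 2, against 1.69%, 0.570% and 16.7% for i4F 1 to i4F 3, so that only i4F 3 lay above both WT mice. The log2 ratio was -1.74 with p = 1 by the same exact test, with median depths of 627, 467 and 1039 UMIs in the i4F B lymphocytes.

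The caerulein cluster with the same name was not used as a group. It made up 6.57% and 5.65% of the cells, but Cd79a was found in 3.42% and 2.51% of its cells and Lyz2, a macrophage gene, in 58.4% and 49.5%. In most of its cells Cd79a, found in every WT B lymphocyte, was not detected.

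Gene levels were tested between WT and i4F on UMIs summed per mouse with edgeR's quasi-likelihood test and Benjamini-Hochberg adjustment (threshold 0.05). Of 4923 genes, 16 were higher in WT (0.325%) and 6 were lower (0.122%), and 446 had an unadjusted p below 0.05.

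Jchain was at 10997 and 11691 CPM in WT and at 32.6, 4.94 and 62.5 CPM in i4F (log2 difference 8.38 ± 0.613 SE, adjusted p = 0.000433). Igkc was at 141595 and 190243 CPM in WT and at 9481, 5957 and 12346 CPM in i4F (4.44 ± 0.338 SE, adjusted p = 0.000433). Ighm was higher by 4.07 ± 0.296 SE (adjusted p = 0.000433). For these genes the groups did not overlap. The same held for genes not past the threshold, such as Cd81 and Ebf1, and the share over all genes tested was not counted.

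The others past the threshold and higher in WT were Tnfrsf17 (6.90), Igkv5-39 (5.44), Prg2 (5.08), Igkv14-126 (4.87), Slpi (3.30), Iglv1 (3.05), Eaf2 (2.98), Cacna1s (2.63), Derl3 (2.60), Creld2 (2.53), Ctla4 (2.19), Pdia4 (2.05) and Mzb1 (1.87), all log2 differences with adjusted p of at most 0.0497. Over all 16 genes, 4 were among the 11 tested plasma cell genes (Jchain, Tnfrsf17, Derl3 and Creld2), 2 were among the 9 tested constant regions (Igkc and Ighm) and 3 were variable genes. In the WT cluster the Jchain-high cells, with 34.5% and 48.7% of all its UMIs, held 70.2% of the Ctla4, 84.6% of the Cacna1s, 89.3% of the Eaf2 and 72.8% of the Pdia4 UMIs.

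These calls moved with how the clusters were cut. In i4F mice nearly all Jchain-high cells lay in a separate cluster of 118 cells named follicular B lymphocytes, of whose cells 91.7%, 100% and 92.5% were Jchain-high, against 0.221%, 0% and 0.465% of the cells in the i4F cluster named B lymphocytes. With that cluster added, 0 genes were higher and 1, Reg3g, was lower by the same edgeR test (338 genes had an unadjusted p below 0.05), and the log2 differences of Jchain, Igkc and Ighm were 1.32, 0.43 and 0.37. The differences of the genes lower in WT stayed about as large there, such as -7.15 for Reg2 (adjusted p = 0.121 by edgeR) and -8.22 for Lyz2 (adjusted p = 0.122 by edgeR). With the Jchain-high cells left out of both groups, 0 were higher and 4 lower (231 with an unadjusted p below 0.05).

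Counted over both clusters, Jchain-high cells were 8.51% and 15.3% of B lymphocytes in WT (mean 11.9% ± 4.81 SD, n = 2) and 4.82%, 7.30% and 5.01% in i4F (5.71% ± 1.38 SD, n = 3). Both WT values lay above the i4F values, and the exact two-sided permutation p was 0.2, again the smallest possible. Among cells named B lymphocytes, 316 of 453, 307 of 343 and 543 of 1290 in i4F had under 500 genes. The WT mice had 1 of 47 and 4 of 111, and the i4F follicular cluster 1 of 24, 7 of 27 and 9 of 67. The order of the groups was not tested among deeper cells. With at least 50 Jchain UMIs the WT shares were 6.38% and 14.4%, and i4F was not counted at that limit.

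The genes lower in WT were 4 of the Reg family, Reg2 (-7.31), Reg3b (-7.21), Reg3g (-7.21) and Reg3a (-6.75), which acinar cells secrete in an injured pancreas, with the macrophage lysozyme Lyz2 (-8.39) and the ribosomal gene Rps29 (-1.60). Reg2 was at 97.3 and 26.2 CPM in the WT B lymphocytes and at 5132, 7287 and 18995 CPM in those of i4F. In acinar cells of the same mice Reg2 was at 41400.5 and 1414 CPM in WT and at 44444, 65681 and 132946 CPM in i4F, and in NK cells at 65.7 and 17.1 CPM in WT and at 1051, 4144 and 14662 CPM in i4F.

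Reg2 thus differed in the same direction in NK cells, and Lyz2 was found in 25.8%, 11.4% and 5.89% of i4F B lymphocytes against 2.13% and 0% in WT. None of the 6 tested macrophage markers had a log2 difference above 0 (median -4.99), though only Lyz2 passed the threshold. The 3 tested ductal and 3 tested acinar markers were below 0 too (medians -1.74 and -1.27). All 4 tested endothelial markers were above 0 (median 1.80), and so was 1 of 4 stellate markers. The part of free RNA in these differences was not tested.

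**Figure D5:**
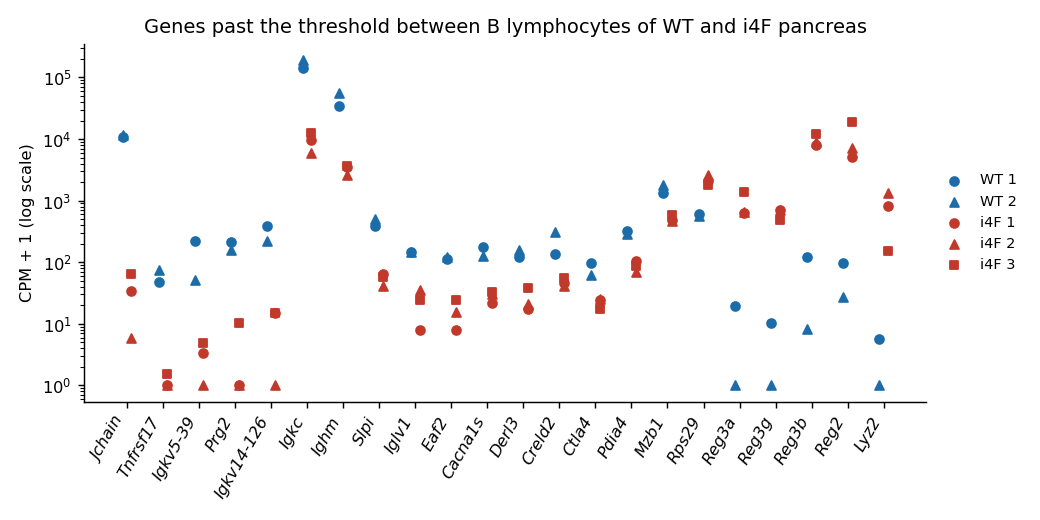
Levels of the 22 genes past the threshold, in CPM plus 1 on a log scale, with 1 point per mouse for the clusters named B lymphocytes (WT blue, i4F red). The 2 WT mice lay above all 3 i4F mice for the first 16 genes and below them for the last 6. The genes were chosen by the test, which favours groups that do not overlap.

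No gene of the B cell receptor list was past the threshold among 15 tested. Cd79a was at 3080.4 and 2351.5 CPM in WT and at 3124, 2576 and 3534 CPM in i4F (log2 difference 0.08 ± 0.252 SE, adjusted p = 0.949), and Ms4a1 differed by 0.85 ± 0.410 SE (adjusted p = 0.579). Cd79a was found in 83.9%, 69.7% and 93.7% of the shallower cells of i4F 1 to i4F 3, and in every WT cell. None of the 16 transcription factors, 11 antigen presentation genes and 9 follicular genes tested passed either, nor did the 10 cell cycle genes, which were all above 0 with a median of 1.05, or the 8 heat-shock genes, with a median of -0.95. The median over all genes was -0.03. Over all 4923 genes 0.325% were called higher and 0.122% lower, so lists of this size would hold few or no calls at that share.

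The counts of calls moved with the mice and the scaling used. They were 32 and 6 (higher and lower) without WT 1, 12 and 12 without WT 2 (both fits leave 1 WT mouse, assumed to vary like the i4F mice), 6 and 1 without i4F 2 and 27 and 28 without i4F 3. The fit without WT 2 is also the one in which all library names share a prefix. With library sizes alone in place of TMM scaling 15 of 36 calls were higher (41.7%, against 72.7%), with the median over all genes at -0.32.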

How the data were processed

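The deposited counts were whole UMI counts per gene and cell in 1 table per condition, with the authors' cluster names beside them. Per the labels and the study's methods, the authors aligned 10x 3′ v3 reads to mm10 with Cell Ranger, removed cells under 150 genes or over 5% mitochondrial reads, corrected for ambient RNA with SoupX and clustered with Seurat; whether the tables precede that correction is not given in the sources used here. How the authors treated doublets is not given in the sources used here, and no doublet caller was run, so cells of very high UMIs or with both light chains could hold doublets. Tables listed 28166 (WT), 31676 (i4F) and 28764 (caerulein) genes. UMIs were summed per mouse and class (Python 3.11.15, scipy 1.17.1). WT was tested against i4F with edgeR 4.0.16 in R 4.3.3 (filterByExpr, TMM, quasi-likelihood, two-sided), after tests on simulated data. Log2 ratios within WT used a prior of 1 UMI scaled to the library. Genes named were the listed markers and lists, the 15 with the largest smaller ratio of both mice, and those past the threshold in lists or among up to 10 per direction, with at least 5 mean log2 CPM and groups that do not overlap; genes named for the difference between the mice (Il1b, Cxcl10) and single variable genes were chosen after their values were seen. Alternatives were DESeq2 1.42.0, other scalings, filters, priors and references, each mouse left out, the replicate number as a block, and cell subsets. Same-numbered WT and i4F mice deviated with r = -0.16 and -0.17 over 4923 genes, and WT 1 and i4F 2 with r = 0.17. The deviations of 2 WT mice mirror each other, so these values could not decide whether numbers pair mice. The members and gene lists were chosen with earlier results of these data known. Genes not listed in the WT table, such as Ighg1, Ighe, Rag1 and Tlr9, were not analysed here.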

Additional observations from a re-analysis of the deposited data

How the results depend on the processing

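Against i4F, the main counts were 16 genes higher and 6 lower in WT. DESeq2 called 33 and 26, keeping every gene with at least 1 UMI called 89 and 88, and library sizes without TMM called 21 lower. Cells with at least 500 genes gave 7 higher, leaving the antibody genes out 7 higher, and leaving out cells with other cell types' markers 15 lower. Without cells of at least 2 Jchain UMIs 0 were higher, with the i4F follicular cluster 0 and 1, and with that cluster but without those cells (added after seeing the data) 0 and 3. Leaving out 1 mouse gave 6 to 32 higher and 1 to 28 lower. The replicate number as a block gave 42 and 55, of which 15 and 6 were shared with the main calls; the mice share only a number, and the cause was not tested for any of these.

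Over the 322 combinations of the 22 called genes and a setting in which the gene was tested, 233 kept their direction and side of the threshold. Of the rest, 84 fell short of it and 5 reversed. Combinations in which the setting's filter dropped the gene were not counted. With the follicular cluster Igkv5-39 was at -1.63, Iglv1 at -1.44 and Slpi at -0.65; Slpi was at -7.84 without the Jchain-high cells and at -7.87 with both changes. The share of B lymphocytes among immune cells turned from -0.27 to 0.88 without i4F 3, while that among all cells stayed between -2.98 and -1.63 with each mouse left out and was -1.74 among cells with at least 500 genes, where only i4F 3 lay above both WT mice.

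Against the other immune clusters (222 and 1363), a minimum of 50 UMIs gave 72 and 517, a minimum of 1 UMI 610 and 2541, NK cells as the reference 181 (92 shared with the main calls) and 562, single mice 597 to 714 and 2200 to 2937, and leaving out the Jchain-high cells (added after seeing the data) 357 higher. That last setting called 1136 lower, 999 of them shared with the main calls. There Jchain and Prg2 had a smaller log2 ratio of -0.66, and 88 of 90 combinations of the 15 leading genes and a setting kept their direction. Depth limits genes under about 10 UMIs in 47 cells of WT 1, and the exact permutation test of 2 against 3 mice allows no p below 0.2 for a share.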
